A study of Homo sapiens with 4 samples.

Results

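The comparison described here set melanoma cells given C646 for 6 h against cells given only its solvent for 6 h. C646 is a small molecule that competes with acetyl-CoA in the catalytic site of the histone acetyltransferases p300 and CBP. The cells were WM35, an established human line from a melanoma in the radial growth phase, and all arrays came from this line alone. Treated cells received 20 µM C646, control cells received DMSO at 0.2%, and both were also sampled at 24 h. The comparison uses 2 of the 4 arrays of the series, 1 per group, all hybridised from 100 ng of total RNA to an Affymetrix exon array. Kept were all rows of the value table at or above the 40th percentile of the row means, a log2 value of 3.96, which left 16579 of 27631 gene-level probe sets and 10632 genes named by a single symbol.

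p300 and CBP acetylate histones at enhancers and promoters and act as coactivators that transcription factors recruit. Their partners include CREB, NF-κB, AP-1, SMAD proteins, p53 and, in the melanocyte lineage, MITF. MITF sets pigment cell identity and takes part in survival, lysosome formation and mitochondrial metabolism in melanoma.

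With 1 array per group, no difference below has a replicate check and none was tested. A difference is the log2 value with C646 minus the log2 value with DMSO at 6 h, so 1 equals a factor of 2. Values at 24 h are given in the same order, DMSO before C646. The scale of noise was the difference between the DMSO arrays of 24 h and 6 h, which were taken 18 h apart and so include drift of the culture. A gene is said to lie past the vehicle spread when its difference exceeds the 95th percentile of the size of those vehicle differences among probe sets of similar mean level (10 bins of equal size). That limit ran from 0.31 to 0.39. The 6 h difference and the vehicle difference share the DMSO array of 6 h, so an odd value on that array would enter both, and each gene group is therefore also given against the DMSO array of 24 h. In RNA from a whole culture, fewer cells of a kind and less RNA per cell cannot be told apart.

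Differences at 6 h were small for most genes. The median size was 0.107 over named genes, against 0.0796 between the vehicle arrays and 0.177 for C646 against DMSO at 24 h. Of the named genes, 432 lay past the vehicle spread on the higher side (4.06%) and 417 on the lower side (3.92%). By the same limit, 157 were higher and 234 lower between the vehicle arrays themselves, so a gene past the spread is not thereby beyond noise. At least 2-fold higher were 11 genes (0.103%) and at least 2-fold lower were 10 (0.0941%), while 5 and 6 differed that much between the vehicle arrays (0.047% and 0.0564%). Above 0 lay 50.6% and below 0 lay 49.4%. Of the higher genes past the spread, 33 had a DMSO mean below the filter value and were kept only through the C646 arrays. The C646 array was above both DMSO arrays for 41.2% of the genes and below both for 38.1%. These shares are the background for every count of group members below. Array medians ran from 4.39 to 4.41, and reference genes such as ACTB had a median difference of -0.023 over 12 measured members. Their range was -0.16 to 0.35, with GAPDH highest and just inside its limit of 0.36.

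**Figure D1:**
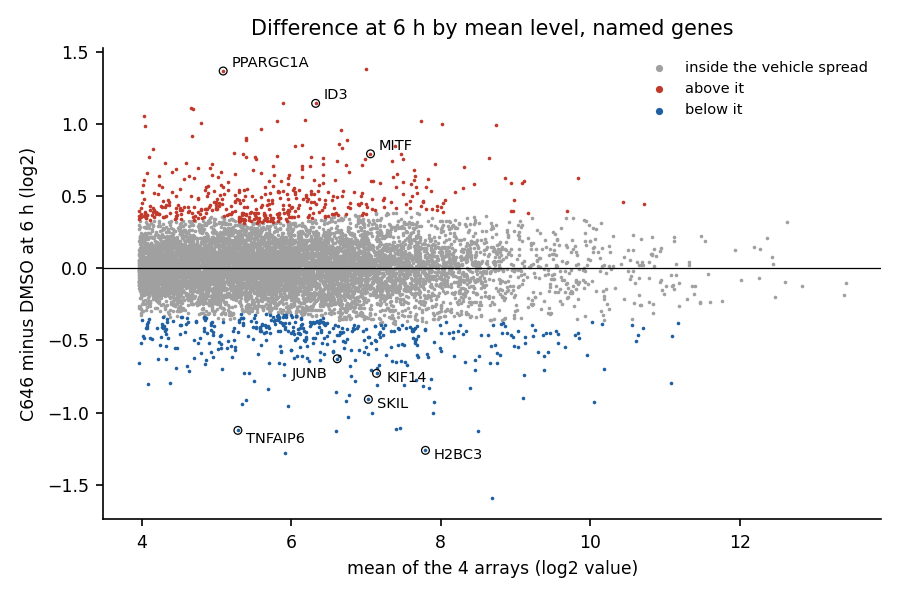
Each point is a named gene, with its mean log2 value over the 4 arrays on the x axis and its C646 minus DMSO difference at 6 h (log2) on the y axis. Red and blue points lie past the vehicle spread, 432 above and 417 below, and circles mark 8 genes described in the text, from PPARGC1A at 1.37 to H2BC3 at -1.26.

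The sequences below are promoter stretches of genes on which the results turn, shown because the letters that cell cycle and melanocyte regulators are known to bind can be seen in them. They come from RefSeq on GRCh38.p14 and end at the base before the annotated start, written 5′ to 3′ on the gene's own strand. In the first pair, PPARGC1A is the upstream of its 2 RefSeq windows (chr4:24472906-24473105, minus strand) and MITF is the window before the first exon of its melanocyte form (chr3:69936392-69936591, plus strand). In the second pair, KIF11 (chr10:92593030-92593129, plus strand) and CDCA8 (chr1:37692416-37692515, plus strand) represent the mitotic genes. Capitals mark an MITF motif (TCACGTG, here as its reverse complement CACGTGA) in PPARGC1A and a CRE, the CREB motif TGACGTCA, in MITF. In KIF11 and CDCA8 they mark the CHR, or cell cycle genes homology region (TTTGAA, or TTCAAA in reverse), and CCAAT boxes (CCAAT, or ATTGG in reverse), 1 of which overlaps the CHR in CDCA8. The other PPARGC1A window holds no MITF motif, and which start the cells used was not measured.
PPARGC1A: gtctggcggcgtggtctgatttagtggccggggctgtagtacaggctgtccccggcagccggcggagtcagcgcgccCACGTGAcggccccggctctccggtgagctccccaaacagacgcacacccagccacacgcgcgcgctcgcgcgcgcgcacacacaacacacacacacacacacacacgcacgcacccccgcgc
MITF: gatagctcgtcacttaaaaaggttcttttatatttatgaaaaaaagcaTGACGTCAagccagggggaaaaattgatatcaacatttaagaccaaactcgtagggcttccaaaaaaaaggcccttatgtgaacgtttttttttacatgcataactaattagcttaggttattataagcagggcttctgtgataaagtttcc
KIF11: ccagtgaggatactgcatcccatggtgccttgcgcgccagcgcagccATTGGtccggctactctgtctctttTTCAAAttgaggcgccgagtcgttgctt
CDCA8: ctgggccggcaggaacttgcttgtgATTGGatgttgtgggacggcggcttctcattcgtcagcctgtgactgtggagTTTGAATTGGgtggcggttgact

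Pigment cell genes were higher with C646 at 6 h. Over the lists of melanocyte transcription factors, pigmentation genes and MITF targets, 41 of 59 members were measured, with a median difference of 0.19 against 0.0025 over all named genes. Of these, 33 lay above 0 and 32 lay above both DMSO arrays. Past the vehicle spread were 10 higher and 0 lower. The median was 0.29 against the DMSO array of 24 h, while that array differed from the DMSO array of 6 h by a median of -0.07 on these genes.

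MITF, the central regulator of pigment cells, read 6.81 with DMSO and 7.60 with C646 at 6 h, and 6.47 and 7.37 at 24 h (probe set 2628785). Both C646 arrays stood above both DMSO arrays, and the 6 h difference of 0.79 is a factor of 1.73 beside a limit of 0.39 at this level. IRF4, a factor that acts with MITF on pigmentation genes, read 6.26 with DMSO and 7.12 with C646, and 6.16 and 7.04 at 24 h. Its difference was as large at 6 h (0.86) as at 24 h (0.88). SOX10, which activates MITF, was at 0.29 and PAX3, which does so too, was at -0.03, both inside the spread.

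Among pigmentation and melanosome genes, the median was 0.21 over 14 measured members. RAB38, a small GTPase that routes enzymes to melanosomes, read 7.17 with DMSO and 7.92 with C646, with 7.15 and 7.73 at 24 h. MLANA, the melanosome antigen MART-1, read 7.45 and 8.09, with 7.34 and 7.74 at 24 h. For both genes the 6 h C646 array was the highest of the 4. OCA2, which sets melanosome pH, was at 0.37 and RAB27A, which tethers melanosomes for transport, was at 0.32. SLC45A2, a melanosome transporter, was at 0.38 and inside the limit of its level (0.39). PMEL, the fibril protein of the melanosome, was at 0.09, and TYRP1, a melanin enzyme, was the lowest member at -0.27. TYR and DCT were not measured under a symbol of their own.

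MITF targets outside pigmentation had a median of 0.14 over 16 measured members. S100B, a calcium-binding melanoma marker, read 8.77 with DMSO and 9.38 with C646, and 8.39 and 9.88 at 24 h. The calcium channel MCOLN3 was at 0.47, the adhesion molecule CEACAM1 at 0.40 and RRAGD, a GTPase that feeds lysosomal nutrient sensing, at 0.39. The lowest members were PLA1A, a phospholipase, at -0.33 and DIAPH1, an actin nucleator, at -0.20. Genes of the invasive, mesenchymal-like state had a median of -0.04 over 20 members. SNAI2, a transcription factor found both in melanocytes and in mesenchymal cells, was the 1 member past the spread (7.98 with DMSO, 8.53 with C646, 8.04 and 8.62 at 24 h). CDH2, or N-cadherin, was at -0.31.

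The MITF motif (TCACGTG or TCATGTG, either strand) occurred in the 250 bases before the start in 7 of 51 RefSeq windows of melanocyte genes (13.7%), which covered 32 of the 41 measured. It occurred in 774 of 12578 windows of the 8625 named genes that had a window (6.15%) and in 5.75% of all 35116 windows in the table. Melanocyte genes with the motif had a median difference of 0.044 (7 genes) and those without it 0.19. The CRE shown above for MITF occurred in 2.52% of windows of named genes. A match describes letters in these windows and no binding was measured.

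PPARGC1A, which encodes the mitochondrial coactivator PGC-1α and is a known MITF target in melanoma cells, had the highest difference among genes whose probe set is numbered with its own chromosome. It read 4.46 with DMSO and 5.82 with C646 at 6 h, and 4.50 and 5.58 at 24 h (probe set 2763550). Both DMSO arrays lay together and both C646 arrays lay more than 2-fold above them. The 6 h difference of 1.37 is a factor of 2.58, beside a limit of 0.35.

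The other 12 measured PGC-1 coactivators and partners all lay inside the spread, and the median over the 13 was 0.03. The related coactivator PPRC1 was at 0.18, the nuclear receptor PPARD at 0.01 and the mitochondrial transcription factor TFAM at -0.27. Respiratory chain and ATP synthase subunits had a median of 0.04 over 31 members, with 21 above 0 and COX5B of complex IV highest at 0.31. The 2 members past the spread, NDUFA5 of complex I (-0.47) and ATP5PB of the ATP synthase (-0.47), were lower, and the numbers of both probe sets fall in another chromosome's range. Their probe sets from the own chromosome went the other way, with NDUFA5 at 0.35 and ATP5PB at 0.20.

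Among glycolysis genes and targets of hypoxia-inducible factor the median was 0.11 over 27 members, with 20 above 0. It was 0.04 against the DMSO array of 24 h. With each gene taken on its brightest probe set, HK2, the hexokinase of proliferating cells, had the highest difference of all named genes. It went from 6.57 to 7.95 at 6 h, with 6.60 and 6.89 at 24 h. That probe set's number falls in another chromosome's range, and the HK2 probe set of its own chromosome read 6.00 and 6.95, with 5.80 and 6.29 at 24 h. On both probe sets the 6 h C646 array was the highest. PFKFB4, which makes the allosteric activator of glycolysis, read 6.15 and 6.86, with 5.82 and 6.16 at 24 h. GAPDH was at 0.35. LDHA was at -0.08 on its brightest probe set, from another chromosome's range, and at 0.08 on its own. Lysosome genes had a median of 0.05, with the sialidase NEU1 at 0.54, and cholesterol synthesis genes had one of 0.01 with no member past the spread.

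**Figure D2:**
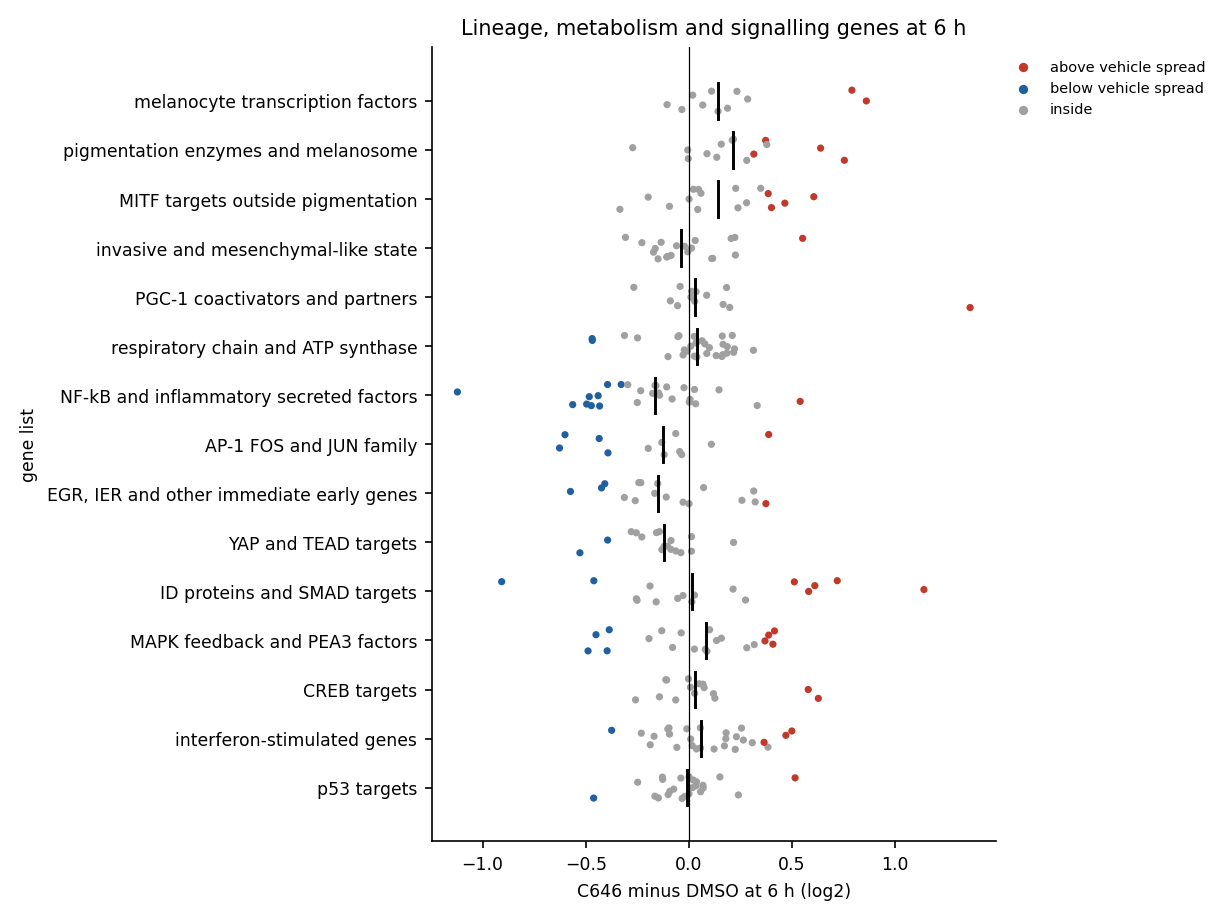
Points are measured genes of 15 lists (y axis) by C646 minus DMSO difference at 6 h (log2, x axis), black bars are list medians, and colour shows the position against the vehicle spread. Points past the spread are all higher in the 3 melanocyte lists and mostly lower in the NF-κB and AP-1 lists, and ID proteins and SMAD targets hold 5 higher and 2 lower.

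Targets of signalling pathways that use p300 and CBP went in different directions. NF-κB targets and inflammatory factors had a median of -0.16 over 27 of 35 members, with 20 below 0. Past the spread were 9 lower and 1 higher, against 3.92% and 4.06% of all named genes. The median was -0.15 against the DMSO array of 24 h.

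The NF-κB members past the spread included 5 of the pathway's own subunits and inhibitors. RELB, a subunit of the noncanonical dimer, read 4.90 with DMSO and 4.41 with C646, and 4.98 and 4.83 at 24 h. NFKB2, its partner, read 6.24 and 5.75, with 6.39 and 6.29 at 24 h. TNFAIP3, or A20, the deubiquitinase that ends NF-κB signalling, read 6.09 and 5.53, with 5.86 and 6.50 at 24 h. For these 3 genes the 6 h C646 array was the lowest of the 4. The inhibitors NFKBIE and NFKBIA were at -0.44 and -0.39, while NFKB1 was at -0.15, REL at -0.11 and NFKBIB at 0.00.

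TNFAIP6, a secreted hyaluronan-binding protein, had the lowest difference of the list. It read 5.71 with DMSO and 4.59 with C646 at 6 h, and 6.25 and 4.59 at 24 h, so both C646 arrays lay below both DMSO arrays. The 6 h difference of -1.12 is a factor of 2.18, and 5 other list members coding for secreted factors or their enzymes were at -0.47 (CXCL8), -0.43 (PTGS2), -0.33 (CCL20), -0.25 (CCL2) and -0.18 (CXCL2), the last pair inside the spread. The hormone STC1 was higher at 0.54, and the collagenase MMP1 was at 0.33 inside the spread.

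AP-1 subunits and related factors had a median of -0.13 over 12 members, with 4 lower and 1 higher past the spread. JUNB read 6.84 with DMSO and 6.21 with C646, and 6.63 and 6.79 at 24 h. JUN read 7.99 and 7.39, with 7.47 and 7.88 at 24 h. JUNB was lowest on the 6 h C646 array, and so was JUN, although its DMSO array of 24 h was close by at 7.47. FOSL2 was at -0.43, and FOSB was at -0.39 but 0.07 above the DMSO array of 24 h. FOS was at -0.06. MAFF, a small MAF factor, was at 0.39.

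Other immediate early genes had a median of -0.15 over 17 members. IER2 read 6.08 with DMSO and 5.51 with C646, with 5.86 and 5.99 at 24 h. SRF, the serum response factor that drives many of these genes, read 7.85 and 7.43, with 7.98 and 7.89 at 24 h. KLF10, a TGF-β-inducible repressor, was at -0.41. These 3 genes were lowest on the 6 h C646 array. EGR1 was at -0.24 and EGR3 at 0.32, both inside the spread, and MYC, the growth factor-induced transcription factor, was at 0.37 and past it. For YAP and TEAD targets the median was -0.12, 14 of 17 lay below 0 and 12 lay below both DMSO arrays. CCN1, a matricellular protein, was at -0.53 and MYOF, a membrane repair protein, at -0.39, and both were past the spread.

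ID proteins and SMAD targets were split. The median was 0.02 over 17 members, and 5 were higher and 2 lower past the spread. ID proteins lack a DNA-binding domain and block basic helix-loop-helix factors. ID3 read 5.93 with DMSO and 7.07 with C646 at 6 h, and 6.07 and 6.23 at 24 h. ID1 read 6.64 and 7.36, with 6.14 and 5.57 at 24 h. ID4 read 3.86 and 4.47, with 3.76 and 4.04 at 24 h. All 3 were highest on the 6 h C646 array, but ID4 was below the filter value on both DMSO arrays and was kept only through the C646 arrays. BAMBI, a decoy TGF-β receptor, was at 0.58 and LTBP3, which holds latent TGF-β, at 0.51.

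SKIL, the SMAD corepressor SnoN, read 7.53 with DMSO and 6.62 with C646, and 7.03 and 6.94 at 24 h. Its other 2 probe sets were at -0.68 and -0.54, so all 3 were lower. SMURF2, a ubiquitin ligase that acts on SMADs and their receptors, was at -0.46 and -0.45 on its 2 probe sets. On the MAPK side, 4 genes were higher and 4 lower past the spread, with a median of 0.08 over 20 members. Among those counted lower was IL6ST, at -0.40 on a probe set numbered among another chromosome and at -0.16 on its own. The ETS factors ETV1 (0.42) and ETV4 (0.41) and the feedback inhibitor SPRY1 (0.37, with a DMSO mean below the filter value) were higher. The ephrin receptors EPHA4 (-0.49) and EPHA2 (-0.45) and the ERK phosphatase DUSP5 (-0.39) were lower. For EPHA4 the DMSO arrays were themselves 0.51 apart, and the 6 h C646 array lay below both.

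CREB targets had a median of 0.03 over 15 members, and of -0.08 against the DMSO array of 24 h. The neuropeptide precursor VGF was at 0.63, and CITED2, which binds p300 and CBP, was at 0.58. Against the DMSO array of 24 h, VGF was at 0.56 and CITED2 at 0.25, the latter below its limit of 0.32. p53 targets had a median of -0.01 over 24 members, with 12 above 0 and 12 below 0. The death receptor FAS was at -0.46, PHLDA3, an AKT inhibitor, at 0.52 and CDKN1A, the CDK inhibitor p21, at -0.16. Against the DMSO array of 24 h the median of p53 targets was -0.17. Interferon-stimulated genes had a median of 0.06 over 27 members, among them OAS1 at 0.50 and OAS3 at -0.37, which both encode oligoadenylate synthetases.

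**Figure D3:**
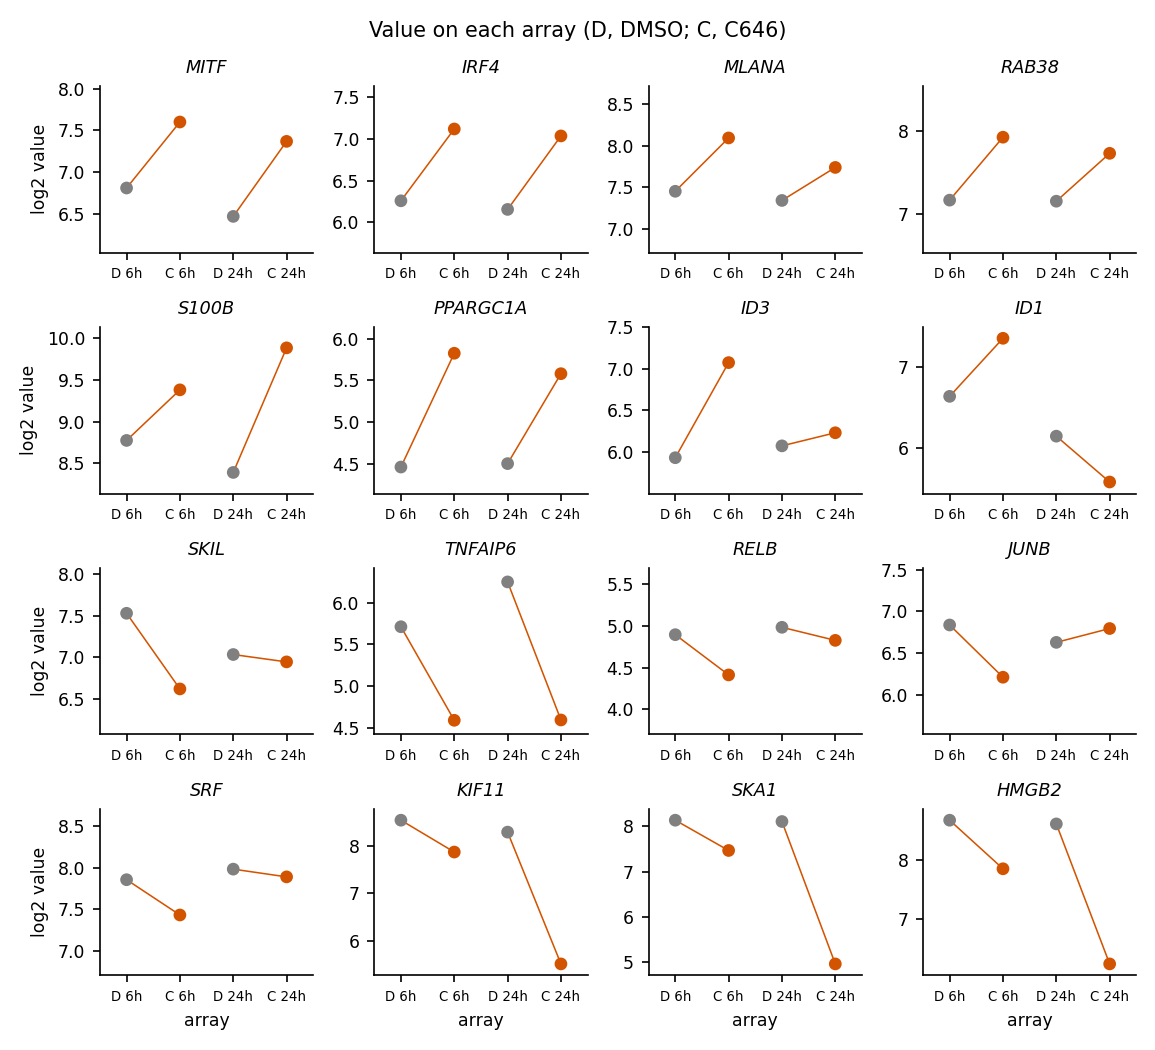
Each panel shows the log2 value (y axis, a separate range per gene) of a gene on the 4 arrays (x axis: D, DMSO; C, C646; 1 array per point), and lines join the arrays of a time. MITF, IRF4 and PPARGC1A are above both DMSO arrays at both times, whereas ID3 reads 7.07 with C646 at 6 h and 6.23 at 24 h, and SKIL, RELB, JUNB and SRF are lowest at 6 h with C646.

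Mitotic genes were lower with C646 at 6 h. Over 7 lists of mitosis genes, 89 of 106 members were measured, with a median difference of -0.29 and 86 below 0. Past the vehicle spread were 29 lower and 0 higher, against 3.92% and 4.06% of all named genes. None was 2-fold lower, whereas 76 were at 24 h, when the median was -1.77 (2.88% of all named genes were 2-fold lower then). The DMSO array of 24 h was itself lower than that of 6 h on these genes, by a median of -0.22, and the median was -0.11 when the C646 array was set against it. Of the 89, 59 lay below both DMSO arrays.

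Mitotic kinesins, the motors of the spindle, had a median of -0.36, and all 10 measured members lay below 0. KIF14 read 8.28 with DMSO and 7.56 with C646, with 7.94 on the DMSO array of 24 h and 4.78 with C646 at 24 h. KIF11, the bipolar spindle motor, read 8.53 and 7.87, with 8.28 and 5.52 at 24 h. KIF20B and CENPE were both at -0.61 and KIF18A at -0.42. These 5 lay past the spread and below both DMSO arrays.

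The kinetochore links chromosomes to the spindle, and its 19 measured genes all lay below 0 (median -0.30). KNL1 was lowest, from 7.86 with DMSO to 7.08 with C646, beside 7.54 and 4.95 at 24 h. SKA1, which holds kinetochores on microtubule ends, read 8.14 and 7.47, with 8.11 and 4.96 at 24 h. The DMSO arrays were thus 0.03 apart for SKA1 and 0.32 apart for KNL1. Against the DMSO array of 24 h the median of the kinetochore list was -0.01, and against the mean of both it was -0.13. CENPA, the centromeric histone, was at -0.14 and 0.03 above the mean of both DMSO arrays.

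Chromosome structure genes had a median of -0.34 over 9 members. HMGB2, a DNA-bending chromatin protein, read 8.69 with DMSO and 7.86 with C646, with 8.62 and 6.23 at 24 h. MKI67, the Ki-67 antigen, read 8.35 and 7.83, with 8.27 and 5.46 at 24 h. SMC2, the condensin ATPase, read 7.50 and 6.94, with 7.45 and 5.72 at 24 h. In these 3 genes the DMSO arrays were less than 0.1 apart, and the 6 h C646 array lay below both. Topoisomerase TOP2A was at -0.59 and its DMSO arrays were 0.30 apart.

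Cytokinesis genes had a median of -0.35 over 12 members, all below 0, including the spindle protein NUSAP1 (9.55 with DMSO, 8.97 with C646, 9.52 and 6.99 at 24 h). DEPDC1 was at -0.83 on a probe set from another chromosome's range and at -0.24 on its own. Entry factors had a median of -0.23, with the phosphatase CDC25C at -0.54 and the kinase CDK1 at -0.53. In the chromosomal passenger and kinase list (median -0.27), Aurora A (AURKA) was at -0.55 and CDCA8, the passenger protein borealin, at -0.44, while Aurora B (AURKB) was at -0.05 and survivin (BIRC5) at -0.06. The spindle checkpoint and APC/C list was the mitotic list nearest 0 (median -0.17), with the kinase TTK and the APC/C enzyme UBE2C both at -0.50 and securin (PTTG1) at 0.17.

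The CHR motif (TTTGAA or TTCGAA, either strand), shown above for KIF11 and CDCA8, occurred in 39 of 93 windows of mitosis genes (41.9%), which covered 73 of the 89 measured. It occurred in 10.3% of 12578 windows of named genes and in 14.3% of all windows. The CCAAT box occurred in 64.5% of the mitosis windows and 32.9% of those of named genes. Within the 73 mitosis genes the 6 h difference was alike with and without a CHR, with medians of -0.28 (34 genes) and -0.27.

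Genes of DNA replication differed less at 6 h than mitotic genes in these arrays. Without histones, the 73 measured S phase genes had a median of -0.05, with 28 above 0, and 1 lay past the spread on the lower side and 0 on the higher. Against the DMSO array of 24 h their median was 0.03. For C646 against DMSO at 24 h it was -1.21, and 41 were 2-fold lower. The difference between the mitosis and S phase lists was not tested. Origin licensing and firing genes were at a median of -0.03, replicative polymerases at -0.13, deoxynucleotide synthesis at -0.04 and E2F factors and cyclins E at 0.003. The licensing gene ORC6 was counted at 0.21, on a probe set numbered among another chromosome. Its own probe set was at -0.47, beyond the highest limit of 0.39, so the count past the spread depends on this choice. The member past the spread was CLSPN, the checkpoint adaptor claspin, which read 6.98 with DMSO and 6.55 with C646, and 6.71 and 3.87 at 24 h. The kinase CDK2 was at 0.35 and the ribonucleotide reductase subunit RRM1 at -0.35.

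Replication-dependent histone genes had a median of -0.12 over 41 measured members, with 11 lower and 2 higher past the spread. Their median was -0.03 against the DMSO array of 24 h. H2BC3 read 9.36 with DMSO and 8.10 with C646, with 9.29 and 4.42 at 24 h. H3C2 went the other way, from 8.10 to 9.10, with 8.84 on the DMSO array of 24 h and 6.02 with C646 at 24 h. These genes are near-identical copies, and the value of a single one is uncertain. Homologous recombination and Fanconi anaemia genes had a median of -0.12 over 23 members, with 5 lower past the spread. The helicase BRIP1 read 7.66 and 7.12, with 7.66 and 5.58 at 24 h, while MMS22L, a fork repair factor, was at -1.13, -0.50 and -0.13 on its 3 probe sets. On the MMS22L probe set at -1.13, the DMSO arrays differed by -0.66 from 6 h to 24 h.

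**Figure D4:**
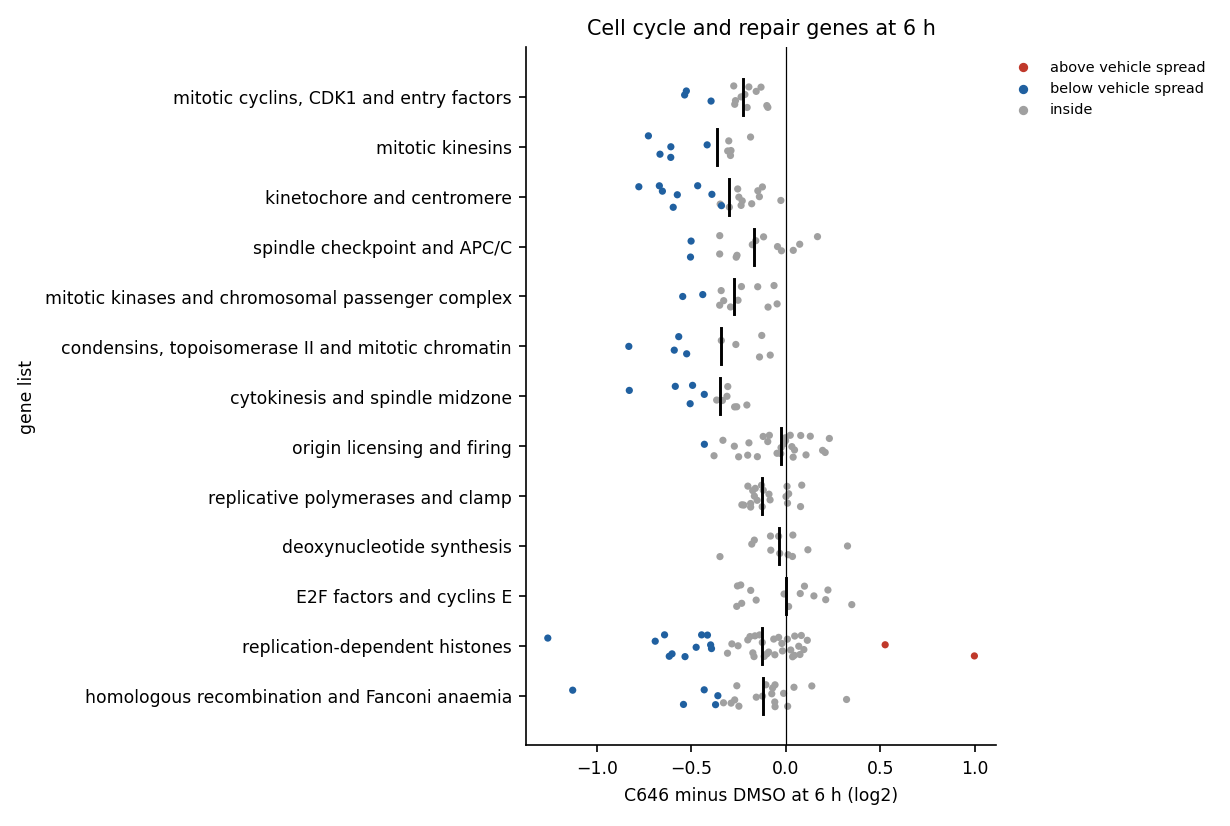
Points are measured genes of 13 cell cycle and repair lists (y axis) by C646 minus DMSO difference at 6 h (log2, x axis), black bars are list medians, and colour shows the position against the vehicle spread. The 7 mitotic lists have medians from -0.36 to -0.17, and the 4 replication lists below them from -0.13 to 0.003.

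Transcripts of acetyltransferases and their partners were also measured. CREBBP, which encodes CBP, read 6.64 with DMSO and 6.53 with C646, and 6.75 and 6.76 at 24 h. EP300, which encodes p300, was not measured under a symbol of its own. Acetyltransferases as a list had a median of -0.01 over 15 members with 0 past the spread, from HAT1 at -0.22 to KAT2B at 0.32. Histone deacetylases and sirtuins had a median of 0.02, also with 0 past the spread. Among bromodomain proteins (median -0.04), the chromatin remodeller subunit BAZ1A was at -0.47. Of 7 measured p300 and CBP partners, 2 lay past the spread, the binding proteins CITED1 at 0.34 and CITED2 at 0.58. Their DMSO arrays also differed from 6 h to 24 h, by -0.45 for CITED1 and 0.33 for CITED2. Against the DMSO array of 24 h, CITED1 was at 0.79 and CITED2 at 0.25, the latter below its limit of 0.32. In the list of Polycomb, H3K9 and DNA methylation enzymes (median -0.04), the remodeller HELLS was at -0.55 and the H3K9 methyltransferase EHMT2 at 0.38. TET1 was highest in that list at 0.55 on a probe set numbered among another chromosome, and was at 0.09 on its own.

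Stress response lists held few genes past the spread. For the unfolded protein response the median was 0.14, 14 of 18 genes lay above 0, and the chaperones HYOU1 and CALR were highest at 0.29 each. Its 1 member past the spread was lower, the translocon subunit SEC61B at -0.52 on a probe set from another chromosome's range, with -0.18 on its own. Against the DMSO array of 24 h their median was 0.35. NRF2 targets had a median of 0.13 with 17 of 20 above 0 and 0 past the spread, but of 0.02 against the DMSO array of 24 h. The integrated stress response list had a median of 0.05, and the 2 members past the spread were the factor DDIT3 at 0.42 and the amino acid transporter SLC7A5 at 0.40. From 6 h to 24 h the DMSO arrays of DDIT3 differed by -0.42 and those of SLC7A5 by -0.11. Heat shock chaperones had a median of -0.003, and -0.12 against the DMSO array of 24 h. The MYC network was at 0.10, ribosome biogenesis at 0.03, ribosomal proteins at 0.03, and G1 regulators at -0.06 with the pocket protein RBL1 at -0.46. Of the 26 measured ribosomal protein genes, 13 had a probe set numbered among another chromosome. In the small aryl hydrocarbon receptor list (4 members, median 0.06), the monooxygenase CYP1A1 was at 0.64, and its DMSO mean lay below the filter value.

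**Figure D5:**
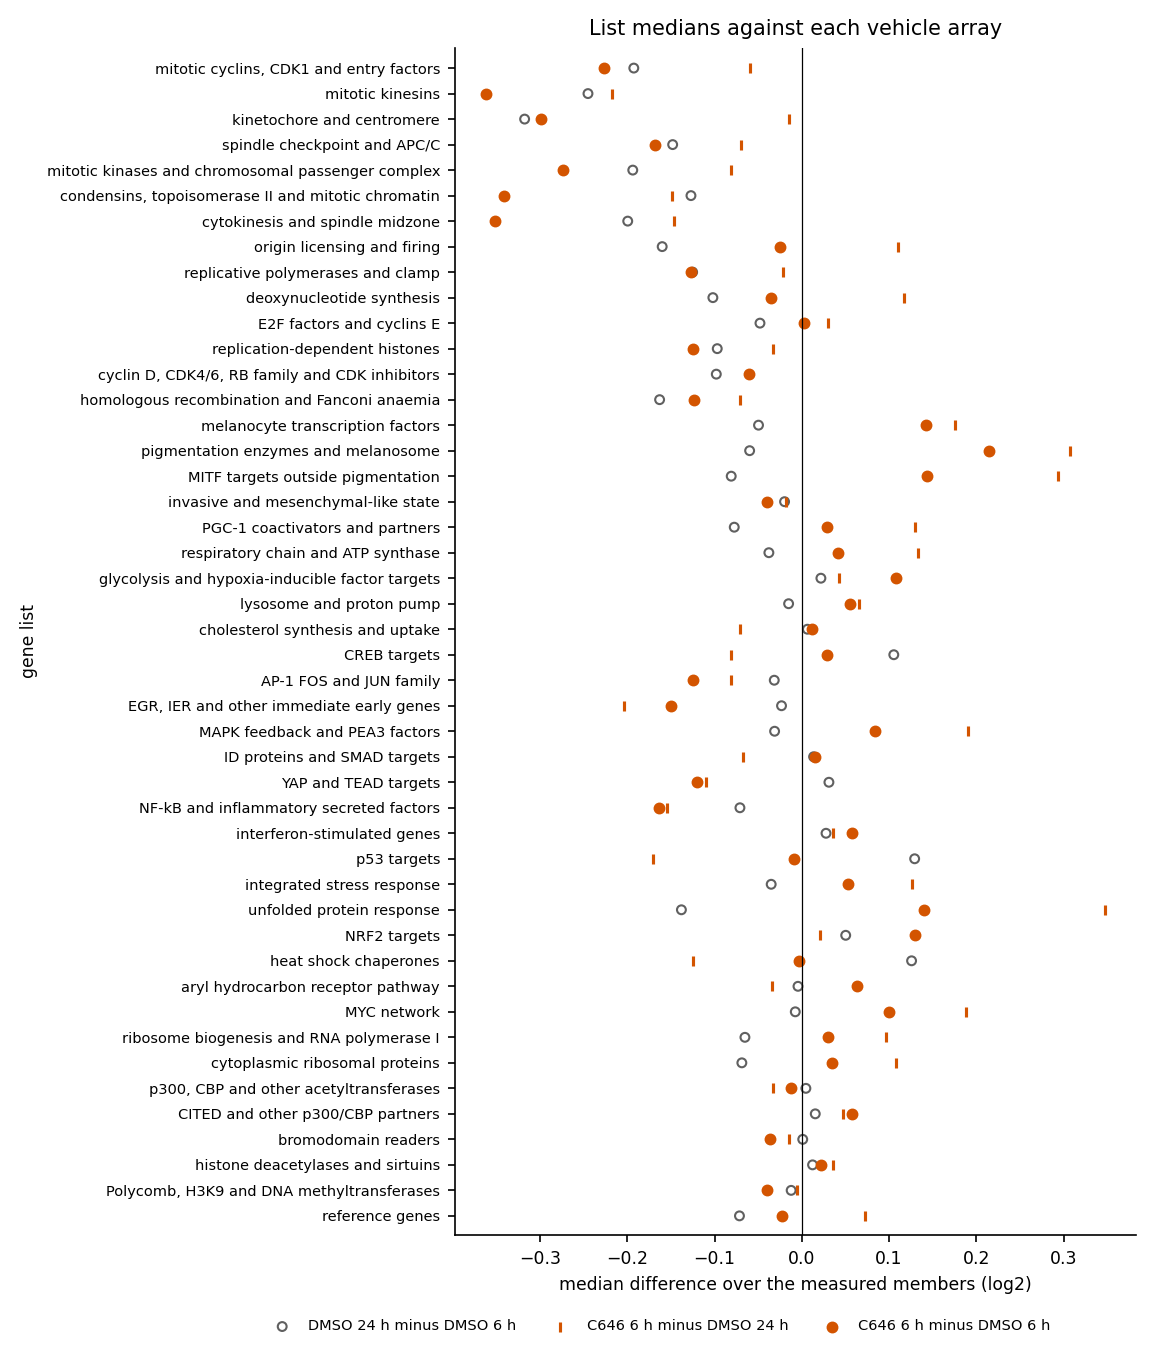
Median log2 difference over the measured members (x axis) of 46 gene lists (y axis): C646 6 h minus DMSO 6 h (filled circles), C646 6 h minus DMSO 24 h (bars) and DMSO 24 h minus DMSO 6 h (open circles). Melanocyte lists lie right of 0 against either vehicle array, NF-κB and AP-1 lists lie left of 0 against either, and the kinetochore list moves from -0.30 to -0.01 between the vehicle arrays.

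Among all kept probe sets, 21 differed upward by 2-fold or more (0.127%) and 19 downward (0.115%), and 11 on each side also lay at least 2-fold from the DMSO array of 24 h. Of the 15 highest named genes, 12 have a probe set whose number does not fall in another chromosome's range. Besides PPARGC1A, ID3 and H3C2 these were FAHD2A, TCAF2, NCAM1-AS1, CD96, LINC00847, B3GALT9, FYB1, KCNJ10 and BEST1, at 0.96 to 1.14. FAHD2A, a metabolic enzyme homologue, was at 1.14 and 0.48 on its 2 probe sets. TCAF2, a regulator of TRP channels, read 4.16 with DMSO and 5.26 with C646, with 4.20 and 5.00 at 24 h. BEST1, a chloride channel of pigment epithelium, read 5.17 and 6.13, with 5.26 and 5.84 at 24 h. KCNJ10, an inward rectifier potassium channel of glia and melanocytes, read 3.79 and 4.78, with 3.52 and 4.10 at 24 h. The antisense RNA NCAM1-AS1 read 3.51 and 4.56, with 4.16 and 3.90 at 24 h. TCAF2 and BEST1 were high on both C646 arrays. KCNJ10 and NCAM1-AS1 had means below the filter value over the DMSO arrays, so they were kept, and ranked here, only through their C646 values.

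The remaining 3 of those 15, HK2, DCUN1D3 (1.10) and NREP (0.99), are numbered among another chromosome, and NREP's own probe set was at 0.21. Of the 15 lowest genes, YES1, CDV3, SYNC, ARPC3 and PTMA are so numbered. The own probe set of the kinase gene YES1 was at -0.09, and the own probe sets of CDV3 were at -0.17 and -0.15. The others, besides H2BC3, MMS22L and TNFAIP6, were the pseudogenes CHORDC1P4 (-1.59) and YWHAQP8 (-1.11) and INO80D, VANGL1, ACTBL2, REP15 and ARRDC4. INO80D, a subunit of a chromatin remodeller, was at -1.01 on a probe set and at -0.18 on its other. VANGL1, a planar cell polarity protein, was at -0.999, -0.34 and -0.22 on its 3 probe sets. ARRDC4, an arrestin that limits glucose uptake, read 8.06 with DMSO and 7.13 with C646, and its difference at 24 h was -0.44.

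The labelled cell type was checked on its markers. Of 8 melanocyte markers, 6 had a probe set of their own and all 6 passed the filter, and their summed level was 11.25 to 11.72 (log2) over the arrays. Of 14 leukocyte markers, 12 had a probe set and 5 passed, with PTPRC, CD3D, CD3E, CD4 and CD14 below the filter on all arrays. The summed leukocyte level was 8.58 and 8.63 with DMSO and 8.90 and 8.86 with C646 at 6 h and 24 h. At 6 h, 7 of the 12 lay above 0, and past the spread were FYB1, an immune adaptor, and CD96, an immune receptor. FYB1 read 4.33 with DMSO and 5.34 with C646, and 4.10 and 5.39 at 24 h. CD96 read 5.72 and 6.75, with 5.76 and 6.50 at 24 h. Both were also among the genes of highest 6 h difference named above, and the lists were chosen with earlier results known. The summed leukocyte level includes both genes, so it cannot serve as a separate check of cell type. PTPRC, CD3D, CD3E, CD4 and CD14 had 6 h differences of 0.007, -0.01, -0.03, -0.004 and -0.12, while LYZ was at 0.33 and CD68 at 0.13. Endothelial markers were summed at 8.99 and 9.30 at 6 h with 3 of 10 passing, KDR at 0.53, and PECAM1, VWF and CDH5 below the filter. Keratinocyte markers went from 9.14 to 8.71, with 4 of 12 passing and the desmosome protein DSP at -0.65, and KRT14 and KRT1 were below the filter. Fibroblast markers were at 7.73 and 7.68, with 4 of 12 passing and a member range of -0.11 to -0.02 among those that passed. The part of other cell types in the differences was not tested beyond these levels.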

How the data were processed

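RNA of WM35 cells was measured on 4 Affymetrix Human Exon 1.0 ST arrays, 1 per treatment and time. The authors' deposited table holds log2 values, a scale read from the values. The genome build hg19 is named in the submitters' processing notes, and the summarisation and normalisation are not given in the sources used here. Probe sets were named where the platform annotation gave exactly 1 symbol (20429 of 27631), updated through Entrez identifiers (20362 matched). A gene with several probe sets was represented by that of highest mean. A probe set was said to be numbered among another chromosome when most of the 10 named probe sets on each side in number order were of that chromosome.

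Values were subtracted between arrays with Python 3.11.15, pandas 2.3.3 and numpy 2.4.6, which was tested on simulated data, and matplotlib 3.10.9 drew the plots. No test was run, since each group has 1 array. The naming rule took in the 15 highest and 15 lowest genes, each list's 3 highest and 3 lowest members and its members past the vehicle spread, CREBBP and EP300. It left out small RNAs and LOC symbols (340 genes over 50 lists), and not all of these genes are described above. The lists and alternatives were chosen with earlier results of these data known. The alternatives were quantile normalization, another vehicle reference, other filters, the mean over a gene's probe sets, probe sets of the own chromosome only and other limits of the vehicle spread. Precision is limited by the number of arrays. Promoters came from RefSeq on GRCh38.p14, where 8625 of the 10632 named genes had a window, and were searched over 250 bases.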

Additional observations from a re-analysis of the deposited data

Results flagged for a closer look

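In the lists and genes below, the difference between C646 and DMSO ran in opposite directions at 6 h and 24 h. The times share no array, each rests on 1 array per side, and the difference between the times was not tested. The AP-1 list had a median of -0.13 at 6 h and 0.22 at 24 h, other immediate early genes -0.15 and 0.11, and YAP and TEAD targets -0.12 and 0.23. Genes lower at 6 h and higher at 24 h were JUN (-0.60 and 0.41), FOSB (-0.39 and 0.50), CCN1 (-0.53 and 0.68), TNFAIP3 (-0.56 and 0.63), NFKBIA (-0.39 and 0.34), FAS (-0.46 and 1.23), REP15 (-0.94 and 1.30) and ACTBL2 (-0.96 and 1.07). REP15 encodes a RAB15 effector and ACTBL2 an actin-like protein. Higher at 6 h and lower at 24 h were ID1 (0.72 and -0.57) and the histone gene H3C2 (1.00 and -2.82).

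The probe set with the largest difference at 6 h of all that were kept has no gene symbol in the annotation. On probe set 3794593 the 6 h value went from 4.90 (DMSO) to 7.22 (C646), a difference of 2.32, and 5.20 and 6.01 at 24 h. The lowest without a single symbol was 3287284, which carries several, at -1.51, but the DMSO array of 24 h read 4.49 beside 5.92 at 6 h and 4.41 with C646.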

How the results depend on the processing

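No paired analysis was possible because each group has 1 array and the labels carry no replicate numbers, and no array could be left out. Quantile normalization, the mean over a gene's probe sets (for medians) and no filter moved no list median by more than the SD of the vehicle difference (0.157) and no count by more than 1.5 times. Of 371 list medians over the alternatives, 359 stayed within that SD. Of 1360 gene values, 233 moved by more than it, not counting 3 past the spread that moved by more than it and changed sign. Against the DMSO array of 24 h, 43 of the 340 genes changed sign, 40 of the 196 inside the spread and 3 of the 144 past it: USP18 (-0.25), FOSB (0.074) and H4C2 (0.067).

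Against the DMSO array of 24 h, the counts of at least 2-fold higher and lower were 66 and 48 probe sets and 40 and 24 named genes, and 810 genes were higher past the spread. Medians became -0.059 for mitotic entry factors, -0.015 for the kinetochore (-0.13 against the mean of both), -0.082 for mitotic kinases, -0.15 for mitotic chromatin, -0.15 for cytokinesis, -0.11 for all mitosis genes, -0.17 for p53 targets and 0.35 for the unfolded protein response. With the filter at the 60th percentile, 12 probe sets and 7 genes were 2-fold higher, and medians were -0.37 for keratinocyte, 0.58 for leukocyte and 0.27 for endothelial markers. Those marker medians rested only on KRT10 and DSP, on CD68 and CD96, and on KDR and ENG, in that order. With probe sets numbered among their own chromosome, 10 probe sets were 2-fold higher, 10 lower, and 6 genes lower. At the 99th percentile of the vehicle spread, 84 genes were higher and 82 lower. Except where the alternative itself tests fewer probe sets or sets a wider limit, the cause was not tested.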

Other observations

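Some further genes past the vehicle spread were picked after their values were seen. CEMIP, a hyaluronan-binding protein, read 5.90 with DMSO and 6.85 with C646 at 6 h, and 6.13 and 7.78 at 24 h. ACVR2A, an activin receptor, read 4.86 and 5.75, with 5.24 and 5.74 at 24 h. RXRG, a retinoid receptor, read 6.54 and 7.37, with 6.19 and 6.58 at 24 h. MBP, the myelin basic protein, read 6.28 and 7.02, with 6.28 and 6.89 at 24 h. GFRA2, a neurturin receptor, read 4.78 and 5.70 at 6 h, and 4.26 and 3.95 at 24 h. On another GFRA2 probe set the values were 4.59 and 6.05 at 6 h, and 4.04 and 3.84 at 24 h. That 6 h difference of 1.46 was larger than that of HK2 (1.38). On the lower side, ZC3H12A, an RNase that degrades inflammatory transcripts, read 5.57 and 4.78, with 5.79 and 5.84 at 24 h. JAG1, a Notch ligand, read 6.99 and 6.25, with 7.10 and 6.85 at 24 h. ETS1, a transcription factor, read 7.76 and 7.11, with 7.69 and 7.51 at 24 h. ZC3H12A, JAG1 and ETS1 were each lowest on the 6 h C646 array.

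Classes of transcript also differed at 6 h. Of 285 long noncoding RNAs, 10.5% lay past the vehicle spread on the higher side and 2.81% on the lower, with a median of 0.05. The filter itself favours the higher side, because genes low with DMSO were kept only where the C646 arrays raised their mean. Over all named genes, 33 past the spread were kept that way on the higher side, NCAM1-AS1 among them, and 0 on the lower. How much this adds to the share of long noncoding RNAs was not tested. Of 10132 protein-coding genes the shares were 3.84% and 3.92%. By gene length, the shortest 1926 genes had a median of 0.03 and the longest 1925 one of -0.02. Among 462 genes whose probe set is numbered among another chromosome, the median was -0.11 and 16.5% lay past the spread on the lower side, against 3.32% of 10066 genes numbered among their own.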
